A study of Homo sapiens with 6 samples.

Results

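The genes for the proteins of the cytosolic ribosome were followed in HCC-LM3, a highly metastatic line of human liver cancer, after treatment with the plant flavone apigenin or with DMSO, the control. Members were gene symbols of the count tables that name a large-subunit protein (RPL, RPLP) or a small-subunit protein (RPS, RPSA) and fit a fixed naming rule. The near copies RPS27L, RPL22L1, RPL36AL and RPL39L were included. The near copies RPL26L1 and RPL7L1 and the RPS6K kinases were not. This gave 81 of 23059 listed genes, 49 for the large subunit and 32 for the small subunit. Total RNA of 3 apigenin-treated and 3 DMSO-treated cultures was sequenced, and the labels call them biological replicates of 1 cell line. The stated question was how apigenin affects transcription in these cells. The labels state neither dose nor duration. No other agent, transgene or mutation is named for either group.

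Ribosomal proteins fold onto ribosomal RNA to form the subunit that reads the mRNA and the subunit that joins amino acids. Their genes are among the most highly expressed in growing cells, and many of their mRNAs start with a run of pyrimidines, the 5′ terminal oligopyrimidine (TOP) tract, through which the kinase complex mTORC1 and the protein LARP1 control their translation and stability. Each functional gene has many processed pseudogenes in the genome, so reads can be shared between copies. The labels do not say how such reads were counted.

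The start of the transcript is shown for members with the largest and smallest differences named below (RPS2 had no entry, and RPL6, with more than 1 listed start, is not shown) and for 2 pairs of near copies, since the TOP tract is the feature by which these mRNAs are usually grouped. Each line gives 30 bases of the RefSeq promoter table (GRCh38.p14), 5′ to 3′ on the gene's strand, with 10 bases before the annotated start and 20 from it. Capitals mark a C followed by pyrimidines (C or T) that begins within 5 bases of the annotated start and runs for 5 bases or more. RPLP1 lies at chr15:69452808-69452837 (plus strand), RPS9 at chr19:54200848-54200877 (plus), RPS21 at chr20:62387093-62387122 (plus), RPS29 at chr14:49598691-49598720 (minus), RPL35 at chr9:124861938-124861967 (minus) and RPL38 at chr17:74203668-74203697 (plus). RPL3 lies at chr22:39319604-39319633 (minus), RPL14 at chr3:40457329-40457358 (plus) and RPL21 at chr13:27251548-27251577 (plus). RPL22L1 lies at chr3:170870176-170870205 (minus), RPL22 at chr1:6199576-6199605 (minus), RPS27L at chr15:63157458-63157487 (minus) and RPS27 at chr1:153990752-153990781 (plus).
RPLP1: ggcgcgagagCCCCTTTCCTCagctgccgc
RPS9: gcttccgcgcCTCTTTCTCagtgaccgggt
RPS21: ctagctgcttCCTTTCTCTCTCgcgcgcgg
RPS29: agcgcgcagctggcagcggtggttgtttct
RPL35: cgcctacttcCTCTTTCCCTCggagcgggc
RPL38: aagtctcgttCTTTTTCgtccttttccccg
RPL3: gccgaccggCCTCTaccggcgggatttgat
RPL14: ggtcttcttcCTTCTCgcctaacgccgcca
RPL21: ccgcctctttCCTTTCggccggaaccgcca
RPL22L1: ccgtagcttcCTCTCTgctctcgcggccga
RPL22: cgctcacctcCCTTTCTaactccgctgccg
RPS27L: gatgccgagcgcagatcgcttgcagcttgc
RPS27: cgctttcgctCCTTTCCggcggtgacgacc

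Of the 13 starts, RPS29 and RPS27L showed no such run at the annotated start, and in RPL3 the run began 1 base before it. A match is a description of these letters only. The table held 65 of the 81 members. In 47 of the 65 (72.3%) the annotated start was a C followed by at least 4 pyrimidines, against 5.14% of all 27305 genes in the table and 7.15% of the 11839 tested genes in it. With the start allowed to lie within 5 bases, the tract was found in 55 members (84.6%), against 25.2% of all genes in the table. In the 300-base window from 250 bases before to 50 bases after the start, searched on both strands, TCGCGAGA was found in 18.5% of members against 2.61% of tested genes. CCGGAAG, a core of ETS-family sites, was found in 35.4% against 21.0%. The TATAAA box was found in 9.23% against 9.26%, and the E-box CACGTG, the core motif bound by MYC, in 6.15% against 12.1%. None of these motifs contains another, and windows of neighbouring genes can overlap.

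The libraries held 33882145 to 37983636 counts. Of 15173 genes that passed the filter on low counts, 2.76% were higher and 4.22% lower with apigenin at an adjusted p under 0.05 by edgeR's quasi-likelihood test. As a check of the label, the keratin genes KRT8 and KRT18 had 2390 and 850 CPM with apigenin and 2550 and 855 CPM with DMSO. Of the 4 tested genes of the epithelial list, KRT19 and CDH1 fell (log2 fold changes of -0.32 and -0.61), the list's median was -0.21, and all 4 fell with the length trend described below removed. CPM of single genes are counts over the TMM-scaled library size, and the summed CPM of a list are over the unscaled library total. The 7 hepatocyte and liver carcinoma markers summed to 192 to 211 CPM in apigenin libraries, against 326 to 344 CPM in DMSO libraries, and 3 of them, ALB, SERPINA1 and APOB, fell. The fibroblast list summed to at most 1.18 CPM. The leukocyte list summed to 86.2 to 93.3 CPM with apigenin and 87.5 to 94.1 CPM with DMSO, nearly all of it CD68, while CD3E had 0 or 1 read. The endothelial list summed to 42.8 to 46.0 CPM with apigenin and 49.2 to 53.8 CPM with DMSO, nearly all of it PECAM1. EPCAM had 2 to 10 reads in each library. Any part of these markers in the results below was not tested.

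Ribosomal protein genes were abundant in every library. All 81 passed the filter, and 76 had at least 1000 counts in each of the 6 libraries. Together they took 4.02, 3.73 and 4.72% of counts in apigenin 1, 2 and 3, against 3.61, 3.67 and 3.63% in DMSO 1, 2 and 3. The means were 4.16 ± 0.51% with apigenin and 3.64 ± 0.0343% with DMSO (SD, n = 3 each). All 3 apigenin libraries were above all 3 DMSO libraries, but apigenin 2 only narrowly, and the spread among apigenin libraries was close to the difference between the means. In bulk RNA, more of these mRNAs per cell and less of the other RNAs cannot be told apart. On the length-scaled FPKM scale (counts over gene length and library total), the members took 9.43, 9.09 and 10.6% with apigenin and 8.79, 8.93 and 8.82% with DMSO.

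Per length, members ranged widely in level. The median member had 371 FPKM with apigenin and 332 FPKM with DMSO. RPL39, a small protein of the exit tunnel, had 1590 ± 154 FPKM with apigenin and 1360 ± 24.1 FPKM with DMSO (SD, n = 3 each). RPL30, a large-subunit protein, had 1550 ± 218 and RPS2, a protein of the mRNA entry site, had 1530 ± 138 FPKM with apigenin, against 1320 ± 45.9 and 1470 ± 56.6 FPKM with DMSO. These were the 3 highest, and their order was not separated by more than their spread in the apigenin group. At the other end stood RPL36A with 0.545 ± 0.270 FPKM with apigenin and 0.653 ± 0.338 FPKM with DMSO, RPS10 with 2.87 ± 0.468 and 2.95 ± 1.09 FPKM, and the near copy RPS27L with 8.06 ± 1.25 and 6.92 ± 0.194 FPKM in the same order of groups.

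At low level stood 3 members that overlap an annotated readthrough gene. RPL36A, which had 7 to 25 counts per library, lies within RPL36A-HNRNPH2. RPS10, with 67 to 129 counts, lies within RPS10-NUDT3, and RPL17, with 422 to 558 counts, within RPL17-C18orf32. None of these readthrough genes is listed in the count tables, and any part of the overlap in the low counts was not tested. RPL36A and RPS10 were also the only members with a log2 fold change below 0, at -0.26 ± 0.607 and -0.04 ± 0.285 (± SE), so neither value was resolved from 0.

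The family as a whole stood slightly higher with apigenin, and few single members passed the test. Of 81 members, 3 rose and 0 fell at an adjusted p under 0.05 over all genes by edgeR's quasi-likelihood test, a share close to the 2.76% of all tested genes that rose. By unadjusted p under 0.05, 57 members were higher and 0 lower (59 and 0 by DESeq2, 36 and 0 by limma on FPKM), against 1780 higher and 1917 lower of all 15173 genes. A further 19 members had an adjusted p between 0.05 and 0.1, as did 985 of all 15173 genes. The log2 fold change was above 0 in 79 of 81 members, against 7711 of 15173 genes. Its median was 0.20, with an interquartile range of 0.15 to 0.24, against 0.00 and -0.15 to 0.15 over all tested genes. With each library's trend on gene length removed, as described below, the median was 0.06. The SD of log2 fold changes over members was 0.0812, against 0.369 over all genes. In 30 members all 3 apigenin libraries lay above all 3 DMSO libraries, and in 0 below, where 14.4% of all tested genes had all 3 apigenin libraries above. Members share libraries and are not replicates of one another. Leaving out 1 library moved the count of 3 to 0 (without apigenin 1 or any 1 DMSO library), 9 (without apigenin 3) or 69 (without apigenin 2). The calls over all genes, 1060 in both directions, moved as well. They became 310 without apigenin 1, 260 to 319 without 1 DMSO library, 1402 without apigenin 3 and 2890 without apigenin 2. The members' median moved to 0.28 without apigenin 2 and 0.083 without apigenin 3.

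**Figure D1:**
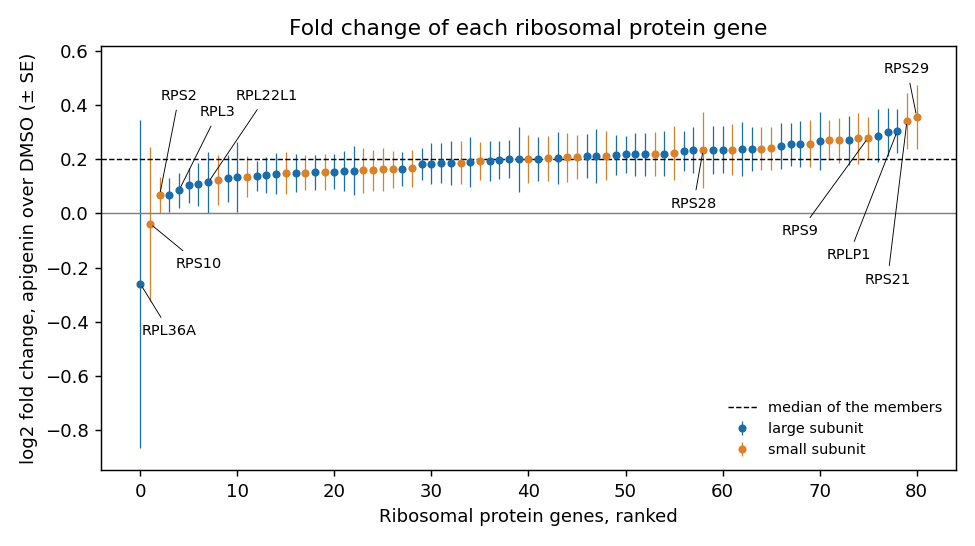
Log2 fold change, apigenin over DMSO, with its standard error, for each of the 81 ribosomal protein genes ranked from lowest to highest, in blue for the large and orange for the small subunit. All but RPL36A and RPS10 lie above 0, and the dashed line marks the median of 0.20.

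The members' levels differed between the apigenin libraries. Relative to the DMSO mean, the median log2 difference of the members was 0.14 in apigenin 1 (interquartile range 0.11 to 0.18), 0.02 in apigenin 2 (-0.02 to 0.06) and 0.42 in apigenin 3 (0.33 to 0.47). With the length trend removed these medians were 0.02, 0.00 and 0.14. A DMSO library set against the other DMSO libraries had a median of -0.01 to 0.00, and all tested genes had medians of 0.00 to 0.01 in each apigenin library. Apigenin 1 was above the highest DMSO library in 72 of 81 members and apigenin 3 in 79, against 33.6 and 37.4% of all tested genes. Apigenin 2 was above the highest DMSO library in 30 members (37.0%, against 30.4% of all genes) and below the lowest in 12, where 4624 of all 15173 genes were below it. The level was highest in apigenin 3, then apigenin 1, then apigenin 2 in 77 of 81 members (95.1%), an order held by 23.3% of all tested genes. The other 4 were RPL17, RPL36A, RPL39L and RPS10, which were among the 5 members under 1000 counts in some library. Apigenin 3 was the highest apigenin library in 80 members (98.8%), against 37.6% of all genes.

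**Figure D2:**
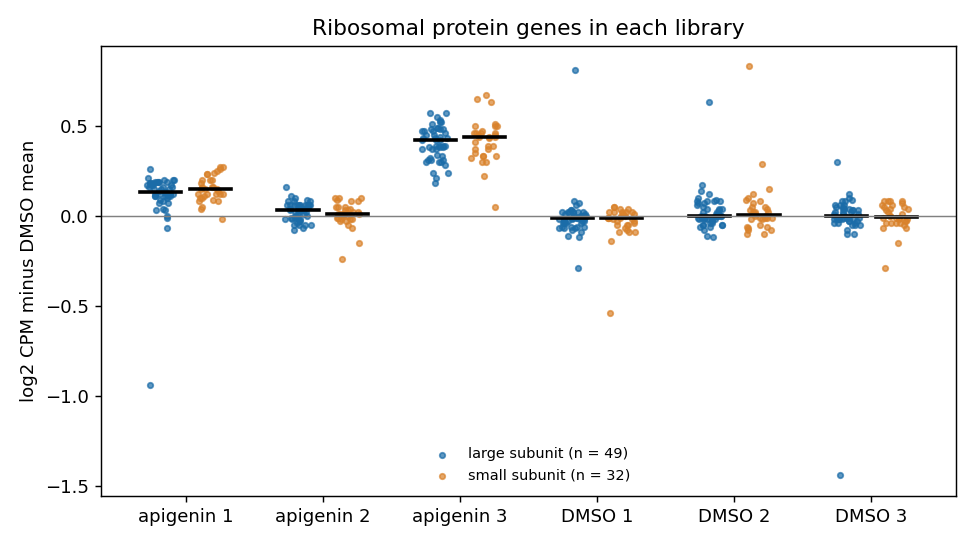
Log2 CPM of each ribosomal protein gene (points; blue, large subunit; orange, small subunit) minus the mean of the DMSO libraries, by library, with medians as black bars; each DMSO library is set against the other DMSO libraries. The cloud of points sits highest in apigenin 3, lower in apigenin 1, and at the level of the DMSO libraries in apigenin 2, for both subunits.

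The medians of large and small subunit lay close together in each library. The large subunit had medians of 0.13, 0.03 and 0.42 in apigenin 1, 2 and 3, and the small subunit 0.15, 0.01 and 0.44. Large-subunit genes took 2.48, 2.30 and 2.89% of counts with apigenin and 2.22, 2.26 and 2.23% with DMSO. Small-subunit genes took 1.54, 1.43 and 1.83% with apigenin and 1.39, 1.41 and 1.40% with DMSO. The ratio of large- to small-subunit counts was 1.61, 1.62 and 1.58 with apigenin, against 1.60, 1.61 and 1.59 with DMSO, so the groups overlapped. Of 49 large-subunit genes 1 rose, 48 had a log2 fold change above 0 and 21 had all apigenin libraries above all DMSO libraries. Of 32 small-subunit genes 2 rose, 31 were above 0 and 9 had no overlap. Of all 15173 tested genes, 2.76% rose, 7711 were above 0 and 14.4% had all apigenin libraries above all DMSO libraries. The difference between subunits was not tested, since members are not replicates.

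Among the proteins of the P stalk, which recruits the GTPases that drive elongation, RPLP1 rose. RPLP1 had 912, 824 and 1090 CPM in apigenin 1, 2 and 3, against 730, 812 and 746 CPM in DMSO 1, 2 and 3. The lowest apigenin library was just above the highest DMSO library, so the groups did not overlap. The log2 fold change was 0.30 ± 0.0827 (n = 3 per group, adjusted p = 0.0415, edgeR quasi-likelihood with Benjamini-Hochberg adjustment). The call was lost without apigenin 1 or any 1 DMSO library (adjusted p of up to 0.197) and by limma on FPKM (up to 0.285), and it held in 16 of 24 alternative settings. RPLP1 overlaps the RNA gene LINC02896, and without strand the reads of the pair cannot be separated. RPLP0, the stalk's base and a common reference gene in quantitative PCR, had 1510, 1400 and 1670 CPM with apigenin and 1340, 1370 and 1320 CPM with DMSO. Its groups did not overlap, but its log2 fold change of 0.18 did not pass the test (adjusted p = 0.0778). RPLP2, also of the stalk and named after its values were seen, had 437, 398 and 559 CPM with apigenin. With DMSO it had 381, 417 and 411 CPM, so its groups overlapped (log2 fold change 0.21, adjusted p = 0.202, edgeR).

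On the small subunit RPS9, a protein of the body that helps to hold the mRNA entry channel, rose. It had 381, 341 and 439 CPM in apigenin 1, 2 and 3, against 311, 337 and 308 CPM in DMSO 1, 2 and 3. Again the lowest apigenin library, apigenin 2, was only just above DMSO 2. The log2 fold change was 0.28 ± 0.0785 (adjusted p = 0.0469 by edgeR's quasi-likelihood test). It lost the call without apigenin 1 or any 1 DMSO library (adjusted p of up to 0.205) and held it in 11 of 24 alternative settings.

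The largest log2 fold changes belonged to 2 small-subunit genes that did not pass the test. RPS29, a small zinc-binding protein of the head, had 209, 185 and 275 CPM with apigenin and 163, 198 and 161 CPM with DMSO. RPS21 had 287, 258 and 374 CPM with apigenin and 233, 259 and 233 CPM with DMSO. In both genes apigenin 2 lay below DMSO 2, so the groups overlapped, and apigenin 3 stood far above the other libraries. Their log2 fold changes were 0.36 ± 0.118 and 0.34 ± 0.103 (adjusted p = 0.0810 and 0.0610, edgeR). RPS29 overlaps the signal recognition particle RNA gene RN7SL1 and the pseudogene RPL32P29. RPL35, near the exit of the peptide tunnel, had 400, 370 and 505 CPM with apigenin and 338, 355 and 340 CPM with DMSO, without overlap. RPL38, whose loss in mice alters Hox gene translation, had 312, 281 and 401 CPM with apigenin and 268, 285 and 262 CPM with DMSO, and its groups overlapped. These had log2 fold changes of 0.30 ± 0.0888 and 0.29 ± 0.0985 (adjusted p = 0.0547 and 0.0903, edgeR), and RPL38 overlaps MGC16275.

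**Figure D3:**
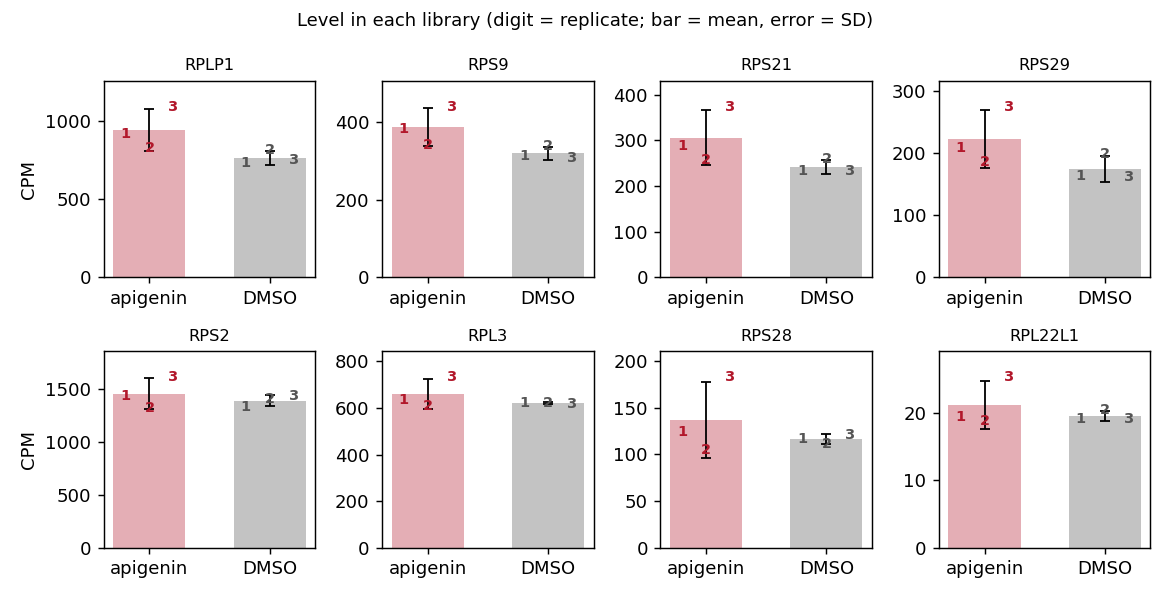
CPM of 8 ribosomal protein genes by group, apigenin left of DMSO (bar, mean; error bar, SD; digits, the 3 replicates of each group). Replicate 3 is the highest apigenin library in each of the 8 panels, and replicate 2 of the apigenin group lies below, among or just above the DMSO libraries.

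The most uneven of the 76 members with at least 1000 counts in each library, RPS28, was singled out after its values were seen. RPS28, a small-subunit protein near the mRNA exit site, had 124, 105 and 183 CPM with apigenin and 117, 111 and 121 CPM with DMSO. Relative to the DMSO mean, its log2 level was 0.09, -0.15 and 0.65 in apigenin 1, 2 and 3. Its log2 fold change of 0.24 ± 0.140 did not pass the test (adjusted p = 0.329, edgeR). RPS28 overlaps KANK3.

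The smallest differences among members at 5 CPM or more were found in 5 large-subunit genes and RPS2. RPS2 had 1430, 1320 and 1610 CPM with apigenin and 1330, 1400 and 1430 CPM with DMSO. RPL3, which reaches towards the peptidyl transferase centre, had 634, 610 and 733 CPM with apigenin and 622, 623 and 618 CPM with DMSO. In both genes apigenin 2 was below every DMSO library and apigenin 3 above every one. Their log2 fold changes were 0.07 ± 0.0650 and 0.09 ± 0.0641 (adjusted p = 0.567 and 0.445, edgeR). RPL6 stood at 0.07 ± 0.0619, RPL14 at 0.10 ± 0.0655, RPL21 at 0.11 ± 0.0811 and RPL22L1 at 0.11 ± 0.113, none of them past the test (adjusted p of 0.353 to 0.580). The sign of RPS2, RPL3 and RPL21 turned negative when the length trend described below was removed (-0.09, -0.05 and -0.09, none of them past the test).

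Members known for roles outside the ribosome or in disease had log2 fold changes of 0.15 to 0.26, around the family's median of 0.20. RPL5 and RPL11, which with 5S RNA bind MDM2 and thereby stabilise p53, had log2 fold changes of 0.20 ± 0.0702 and 0.22 ± 0.0791. RPL5 had 427, 418 and 510 CPM with apigenin and 383, 402 and 395 CPM with DMSO, without overlap. RPL11 had 395, 369 and 478 CPM with apigenin and 346, 369 and 352 CPM with DMSO, where apigenin 2 and DMSO 2 were equal at this rounding. RPS6, the target of the S6 kinases, had 302, 295 and 378 CPM with apigenin and 290, 286 and 279 CPM with DMSO. RPS19, the gene most often mutated in Diamond-Blackfan anaemia, had 730, 649 and 895 CPM with apigenin and 627, 645 and 630 CPM with DMSO. RPSA, also known as a laminin receptor, had 449, 430 and 514 CPM with apigenin and 419, 422 and 412 CPM with DMSO. In these last 3 genes no library of one group crossed the other. Their log2 fold changes were 0.19 ± 0.0800, 0.26 ± 0.0871 and 0.15 ± 0.0643, and none of the 5 passed the test (adjusted p of 0.0873 to 0.164, edgeR). RPS19 lay above the family's upper quartile of 0.24. It passed with the gene-model length trend described below removed (0.20, adjusted p = 0.0453, edgeR). With the principal transcript length trend removed it did not (0.07, adjusted p = 0.252, edgeR). RPL5 overlaps DIPK1A.

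Near copies were set against their parent genes by the ratio of their levels. Of 8 pairs considered, RPL3L and RPL10L are not among the listed genes, and 6 pairs were compared by the log2 ratio of copy to parent CPM. RPL22L1, the copy of the RNA-binding protein RPL22, had 19.5, 18.9 and 25.4 CPM with apigenin and 19.2, 20.5 and 19.2 CPM with DMSO. RPL22 had 287, 279 and 340 CPM with apigenin and 267, 265 and 283 CPM with DMSO. The log2 ratio was -3.83 ± 0.0744 with apigenin and -3.79 ± 0.0925 with DMSO (SD, n = 3 each), a difference of -0.04. RPS27L, a copy of RPS27 that p53 induces, had 49.8, 40.9 and 57.3 CPM with apigenin and 43.0, 40.8 and 43.0 CPM with DMSO. RPS27 had 687, 620 and 762 CPM with apigenin and 608, 618 and 636 CPM with DMSO, and the log2 ratio differed by 0.06. Both copies followed their parents in being highest in apigenin 3.

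The ratio of RPL39L to RPL39 differed by -0.03, of RPL26L1 to RPL26 by -0.02 and of RPL7L1 to RPL7 by -0.15. That of RPL36AL to RPL36A differed by 0.34, with RPL36A at 7 to 25 counts. For each of the 6 pairs an exact two-sided permutation test of 3 against 3, which cannot go below p = 0.1, gave p of 0.3 to 0.8 (0.8 after Benjamini-Hochberg adjustment over the 6 pairs). No pair could have passed 0.05 in this design, so these tests settle nothing on whether the ratios shifted. The log2 ratio of RPL7L1 to RPL7 was -2.88, -2.72 and -3.14 in apigenin 1, 2 and 3, against -2.76, -2.78 and -2.73 in DMSO 1, 2 and 3. It was lowest in apigenin 3 and 1, while apigenin 2 lay above all DMSO libraries, so the groups overlapped. By FPKM, RPS27L stood at 0.684% of its parent with apigenin and 0.651% with DMSO, and RPL22L1 at 7.64 and 7.83%. RPL36AL stood above RPL36A, at 148 against 0.545 FPKM with apigenin and 133 against 0.653 FPKM with DMSO.

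Ribosomal protein genes are short, and the fold changes of all genes followed length. The gene-model length implied by count and FPKM had a median of 1119 nucleotides over the members (390 to 7573), against 3872 over all tested genes. Across all tested genes, which are not independent, the log2 difference from the DMSO mean changed by -0.0707, -0.0211 and -0.147 per doubling of length in apigenin 1, 2 and 3. These slopes have the same order as the members' medians. Across the 81 members the slopes were 0.0127, -0.000254 and 0.000548, and the Spearman correlation of log2 fold change with length was -0.01 (n = 81 genes that share libraries), against -0.36 over 15173 genes. It was -0.21 over members with the length of the principal coding transcript (GENCODE 29), against -0.38 over 12662 genes. For the difference from the DMSO mean in apigenin 1, 2 and 3, the correlation with that length was -0.2, -0.04 and -0.3 over members. Over all genes it was -0.32, -0.06 and -0.5.

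Set beside short genes in general, the members had similar medians in apigenin 1 and 2 and a higher one in apigenin 3. The shortest of 5 equal groups of tested genes, up to 1987 nucleotides, held 3036 genes, of which 59 were members. All genes in it had medians of 0.12, 0.03 and 0.27 in apigenin 1, 2 and 3, and its 59 members 0.13, 0.02 and 0.42. The other 22 members, with longer gene models, had 0.16, 0.02 and 0.43. A long gene model did not always mean a long transcript. Among these members, RPS29, RPL14 and RPL15 had principal transcripts of 296, 916 and 820 nucleotides, and RPL37 and RPL27A of 7686 and 4916. These values are descriptions and the difference in apigenin 3 was not tested.

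**Figure D4:**
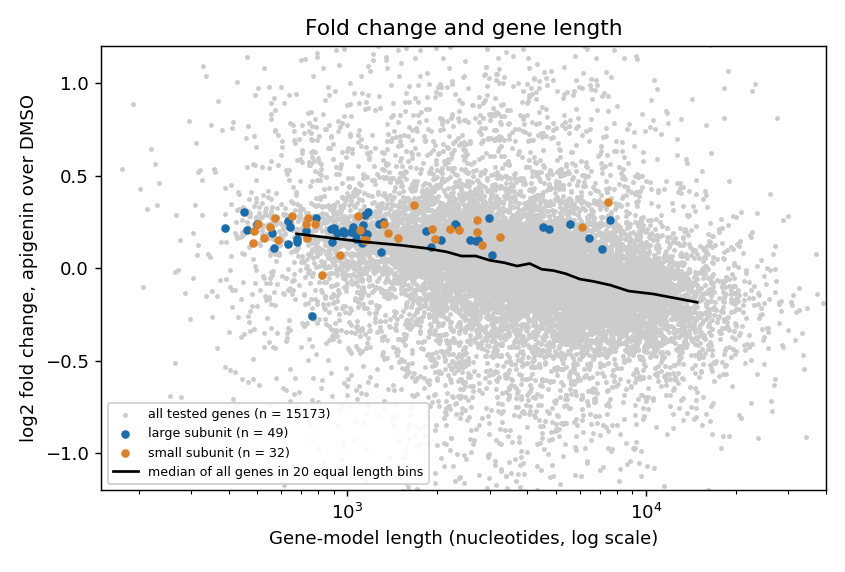
Log2 fold change, apigenin over DMSO, against gene-model length in nucleotides (log axis) for 15173 tested genes (grey) and the ribosomal protein genes (blue, large subunit; orange, small subunit); 239 genes lie outside the axes. The median of all genes in 20 length bins (black line) falls with length, while the members stay near 0.20 at short and long gene models alike. Some members with a long gene model have a short principal transcript.

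With each library's trend on gene-model length removed, 10 members rose and 0 fell, where 4.51% of all tested genes rose. These were RPL13, RPL15, RPL27A, RPL28, RPL37, RPL37A, RPLP1, RPS19, RPS21 and RPS29. Of these 10, 8 had a gene model over 2500 nucleotides, as did 17 of all 81 members. With the trend on the length of the principal transcript removed instead, an alternative added after seeing the data, the median was also 0.06. The libraries stood at 0.03, 0.02 and 0.10, and 6 members rose, where 4.69% of all genes rose. That length was known for all 81 members but for only 12662 of the 15173 tested genes, and the rest entered this fit without correction. RPLP1, RPL27A, RPL37 and RPL37A rose in both fits. With the gene-model trend removed the count was 2 without apigenin 1, 26 without apigenin 2 and 4 without apigenin 3. Calls over all genes in these fits, in both directions, were 912, 1960 and 1436.

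RPLP1 passed the test on the counts and in both length-corrected fits (0.15, adjusted p = 0.0286, and 0.20, adjusted p = 0.0121, edgeR; up to 0.285 over 24 settings). RPS9 stood at 0.13 in both corrected fits and was not called (adjusted p = 0.0750 and 0.0624). RPS29 moved most with the choice of length. Its gene model spans 7472 nucleotides and its principal transcript 296, and its log2 fold change was 0.46 with the gene-model trend removed (adjusted p = 0.0144) and 0.10 with the transcript trend removed (adjusted p = 0.335), with adjusted p from 6.25e-08 to 0.372 over 24 settings. RPL37, a zinc-binding protein of the large subunit, has 7573 nucleotides in the gene model and 7686 in the principal transcript. It had 290, 263 and 353 CPM with apigenin and 251, 252 and 255 CPM with DMSO, without overlap. It stood at 0.26 ± 0.0845 on the counts (adjusted p = 0.0802), at 0.36 (adjusted p = 0.0109) and 0.43 (adjusted p = 0.0139) in the corrected fits, and reached 0.317 over the 24 settings.

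**Figure D5:**
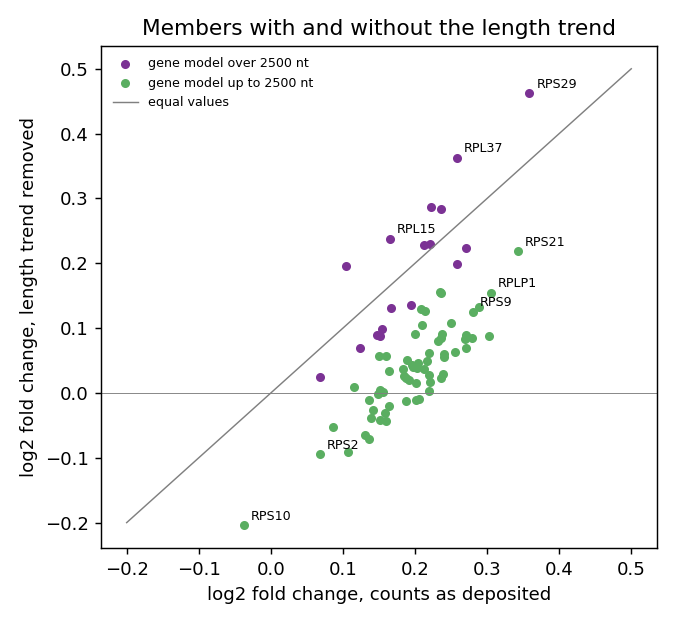
Log2 fold change of each ribosomal protein gene except RPL36A on the counts as deposited (horizontal axis) and with the gene-model length trend removed (vertical axis), coloured by a gene model over (purple) or up to (green) 2500 nucleotides. Long gene models such as RPS29 and RPL37 lie above the line of equal values and most short ones below it, with RPLP1 at 0.30 and 0.15.

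Members with and without a TOP tract at the annotated start differed little. The 47 with it had a median log2 fold change of 0.21 and the 18 without it 0.18. Of 20 other genes with TOP mRNAs, which encode translation factors and ribosome-associated proteins, 1 rose, 0 fell and 19 did not pass, where 2.76% of all tested genes rose. At an unadjusted p under 0.05, 7 were higher and 0 lower, against 1780 and 1917 of all 15173 genes. The list had a median of 0.10 and medians of 0.08, 0.02 and 0.22 in apigenin 1, 2 and 3. The gene that rose was FAU, which encodes the small-subunit protein eS30 fused to a ubiquitin-like domain and whose symbol the rule for members does not match. FAU had 181, 165 and 205 CPM with apigenin and 145, 156 and 147 CPM with DMSO, without overlap (log2 fold change 0.30 ± 0.0734, adjusted p = 0.0281, edgeR). It lost the call without apigenin 1 or any 1 DMSO library (adjusted p of up to 0.159) and with the length trend removed (0.10, adjusted p = 0.204). In that length-corrected fit 4.51% of all 15173 tested genes rose and 828 fell, and the list's median was 0.06. Of the 20, 4 rose, among them EEF1D, NACA and NAP1L1, and 1, EIF3K, fell (-0.15, against 0.03 on the counts). These were named after their values were seen. The elongation factor genes EEF1A1 and EEF2 had log2 fold changes of 0.08 and -0.01.

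Of 38 ribosome biogenesis genes, 5 rose, 0 fell and 33 did not pass, where 2.76% of all tested genes rose. At an unadjusted p under 0.05, 19 were higher and 0 lower, against 1780 and 1917 of all 15173 genes. The list had a median of 0.14 and medians of 0.12, 0.09 and 0.23 in the 3 apigenin libraries. In the length-corrected fit the median was 0.07. NOB1, the nuclease that finishes the small-subunit RNA, had 84.4, 80.2 and 85.9 CPM with apigenin and 69.4, 70.4 and 68.4 CPM with DMSO (log2 fold change 0.27 ± 0.0611, adjusted p = 0.0205, edgeR). RRS1, which acts in assembly of the 5S particle, stood at 0.27 ± 0.0616, and NOP2, a large-subunit RNA methyltransferase, at 0.23 ± 0.0544. In these 3 genes no library of one group crossed the other, and apigenin 2 was higher than DMSO by an amount close to that of apigenin 1. All 3 lost their call without apigenin 1 or any 1 DMSO library (adjusted p of up to 0.159), and NOB1 also with the length trend removed (0.15, adjusted p = 0.0727). With the principal transcript length trend removed instead, NOB1 kept its call (0.20, adjusted p = 0.0181, edgeR). The other 2, NIP7 and SDAD1, were named after their values were seen and each stood at 0.28.

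Of 14 genes for RNA polymerase I and its factors, which make the ribosomal RNA precursor, 0 rose and 0 fell by edgeR (2 higher and 0 lower at an unadjusted p under 0.05, median 0.08). Of 9 genes for chaperones of ribosomal proteins, likewise 0 rose and 0 fell (2 higher and 0 lower unadjusted, median 0.13). Of 16 genes of mTORC1 and MYC control, 0 rose and 0 fell, with 2 higher and 4 lower unadjusted and a median of -0.02. DESeq2 and limma on FPKM also called none of the genes of these 3 lists. Of all 15173 tested genes, edgeR called 2.76% higher and 4.22% lower, with 1780 higher and 1917 lower unadjusted. In the length-corrected fit, where 4.51% of all tested genes rose and 828 fell, 3 chaperone genes rose, PDCD2 (0.25), NACA (0.22) and NAP1L1 (0.29). In that fit 1 gene of the mTORC1 and MYC list, SESN2, fell (-0.38). These 4 were named after their values were seen. NACA and NAP1L1 are also on the list of other TOP mRNAs, so their rise is 1 result counted in both lists. MYC had a log2 fold change of -0.09, LARP1 of -0.11 and MTOR of -0.23 (adjusted p = 0.324, 0.330 and 0.0981, edgeR). The lists bear on mRNA levels and not on the activity of these proteins.

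The mitochondrial ribosome, whose proteins are encoded by other nuclear genes, showed a similar small shift. Of 77 tested genes of 78 listed, 7 rose, 0 fell and 70 did not pass, where 2.76% of all tested genes rose. At an unadjusted p under 0.05, 29 were higher and 0 lower, against 1780 and 1917 of all 15173 genes. The median of the 77 was 0.15 and their medians in apigenin 1, 2 and 3 were 0.11, 0.04 and 0.34. These 77 genes are also short, with a median gene model of 1550 nucleotides. In the length-corrected fit their median was 0.05 and 3 of them rose, where 4.51% of all tested genes rose. MRPL44, a large-subunit protein, had 47.9, 49.9 and 54.9 CPM with apigenin and 41.3, 40.4 and 35.6 CPM with DMSO (log2 fold change 0.38 ± 0.0806, adjusted p = 0.0138, edgeR). All 3 apigenin libraries were above all 3 DMSO libraries, with apigenin 3 the highest, and the gene kept its call in the length-corrected fit (0.28, adjusted p = 0.0125). It lost the call without any 1 DMSO library (adjusted p of up to 0.103). MRPS26 and MRPS2, both of the small subunit, stood at 0.34 ± 0.0830 and 0.28 ± 0.0701 and lost their calls without apigenin 1 or any 1 DMSO library. Both also lost them with the gene-model length trend removed (0.19, adjusted p = 0.0582, and 0.16, adjusted p = 0.0843, edgeR). MRPS26 and MRPS2 kept their calls with the principal transcript length trend removed instead (0.23 and 0.20, both with adjusted p under 0.05, edgeR). The 1 listed ribosomal protein pseudogene, RPSAP58, had a log2 fold change of 0.12 ± 0.151 (adjusted p = 0.666).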

How the data were processed

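Per the labels' protocols, TRIzol extraction of total RNA was followed by library construction with a VAHTS Universal V6 kit. The tools named are fastp, HISAT2 and HTSeq, without versions, and the build is GRCh38 (hg38), per the submitters' processing notes. Strand use is not stated. The authors deposited raw read counts per gene symbol and FPKM values for each sample. The deposited FPKM equal the count over a fixed gene length and the library total in 100% of genes (relative tolerance 0.0001), so lengths were taken from them.

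The groups were compared with edgeR 4.0.16 (R 4.3.3; quasi-likelihood test, TMM factors, default filter on low counts, Benjamini-Hochberg adjustment over 15173 genes at 0.05). The standard error is the log2 fold change over the root of the F statistic. Per-library differences used log2 CPM with a prior count of 2. Alternatives were DESeq2 1.42.0, other scaling and filters, limma 3.58.1 on log2(FPKM + 1) and log2(FPKM + 0.1) with 0.5 FPKM in 3 libraries, lowess trends on length or GC removed as offsets (span 0.3), the replicate block and each library left out. Fold changes on the FPKM scale understate low genes. The fit was also run on simulated data with 200 changed genes, the outcome of which is not given here, and no call rests on it.

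The members and lists were chosen with earlier results of these data known. Named genes were called members, the 6 largest and 6 smallest log2 fold changes at 5 CPM or more, the 3 highest and lowest FPKM, paralogue pairs, 6 members by role and up to 3 called genes per list. The values of 1 called member are not reported here. Promoter sequences came from RefSeq (GRCh38.p14), and symbols matched RefSeq for all 81 members.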

Additional observations from a re-analysis of the deposited data

How the results depend on the processing

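The median log2 fold change of the members was above 0 in each of the 24 alternatives (0.016 to 0.28). The count of members that rose, 3 on the counts, was 3 under each of 4 other scalings and with 1 CPM in 3 libraries. It was 20 by DESeq2 (of 1567 genes called in all) and 51 without a filter (1961 in all). By limma on FPKM it was 0 in each of 3 forms (655, 625 and 138 in all). With the length trend removed it was 10 (1513 in all), with length and GC removed 7 (1558 in all) and with principal transcript length removed 6 (1510 in all). With 1 library left out it was 0 to 69, over 260 to 2890 genes in all against 1060, and with the length trend also removed 2 to 26, over 912 to 1960 in all. The count of members that fell was 0 except for 1, RPS2, with the length trend removed and apigenin 3 left out. Samples that share a replicate number did not deviate together (correlations of -0.0173, -0.0194 and -0.0482, and no sample correlated best with its own number). The replicate block gave 17 members and 1231 genes in all, and the block with length removed gave 15 and 1724. The medians in apigenin 1, 2 and 3 became 0.02, 0.00 and 0.14 with length removed, and 0.03 and 0.10 in apigenin 1 and 3 with principal transcript length removed. As shares of FPKM in place of counts, the members took 9.43, 9.09 and 10.6% with apigenin and 8.79, 8.93 and 8.82% with DMSO. Shares by library totals are the main shares by construction. Where a value moved, the cause was not tested.

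Over 37 named genes and 24 settings, 682 values kept direction and call, 82 (of 9 genes) lost the call and 69 (of 20 genes) gained it, each in the same direction, and 54, of 14 genes that were not called, changed sign. With length removed, with length and GC removed, and with length removed under the block, RPL21 stood at -0.09, -0.09 and -0.09, RPL3 at -0.05, -0.06 and -0.05, RPL36AL at -0.03, -0.02 and -0.03, RPS2 at -0.09, -0.10 and -0.09, and RPS27 at -0.04, -0.03 and -0.04. With principal transcript length removed, RPL14 stood at -0.02, RPL21 at -0.06, RPL3 at -0.0035, RPL6 at -0.06, RPS2 at -0.05 and RPS27 at -0.07. RPS10 stood at 0.000118, 0.01 and 0.000118 by limma and at 0.00317 with the block. Leaving out 1 library, with or without length removed, gave -0.10 to 0.19 in RPL21, -0.08 to 0.19 in RPL22L1, -0.07 to 0.14 in RPL3, -0.06 to 0.25 in RPL36AL, -0.01 to 0.28 in RPL39, -0.06 to 0.29 in RPL39L, -0.03 to 0.12 in RPL6, -0.10 to 0.13 in RPS2, -0.06 to 0.22 in RPS27, -0.00345 to 0.25 in RPS6 and -0.00345 to 0.20 in RPSA (-0.00273 without apigenin 3). On the counts alone it gave -0.66 to 0.06 in RPL36A, -0.21 to 0.31 in RPS10, -0.03 to 0.19 in RPL22L1, -0.01 to 0.12 in RPL6 and -0.01 to 0.13 in RPS2. RPL36A had 7 to 25 and RPS10 67 to 129 counts per library, which limits both.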
